A study of Mus musculus with 12 samples.

Results

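The subject here is a set of 9 genes of myelin and mature oligodendrocytes, Mbp, Mobp, Mog, Mag, Cnp, Mal, Ermn, Opalin and Cldn11, in adult mouse forebrain. The genes were taken by name: the rows of the count table whose Ensembl identifier carries 1 of the 9 symbols. No value entered this match of rows, but the 9 symbols were chosen with earlier results of these data known. All 9 were found among 56748 genes, and all 9 passed the filter on low counts that left 17995 genes for testing. Oligodendrocytes wrap axons of the central nervous system in myelin, a stack of lipid-rich membrane that speeds conduction and lets axons run at lower metabolic cost. Compact myelin is held together by basic and proteolipid proteins, while channels of cytoplasm, tight junctions and adhesion proteins keep the sheath open to transport, sealed and attached to the axon. Notch signalling is known for holding oligodendrocyte precursors back from maturing, and valproic acid inhibits histone deacetylases, enzymes that oligodendrocytes need in order to differentiate.

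RNA was sequenced from 12 forebrain libraries in 4 groups of 3: WT (wildtype), a conditional knockout of Notch whose genotype label is htr3a Notch KO, and each of these genotypes after prenatal valproic acid. The prenatal drug therefore acted on the embryo, and the RNA was taken from the adult. The labels leave out the strain, exact age, dose and day of exposure, which Notch gene was deleted and by which driver, and what animals without the drug received. Whether libraries stand for separate animals is not stated either, so p-values measure the spread between these libraries, which may be technical. Total counts ran from 16887885 to 24944681. Xist, which female cells transcribe from the silenced X chromosome, was nearly absent from replicate 3 of both exposed groups (12 counts in wildtype, 6 in knockout), where the other 10 libraries had 5919 to 10767. Transcripts of the mitochondrial genome took 12.2% to 18.6% of counts. Results on valproic acid are therefore also given with both libraries that lack Xist left out where this ends a call.

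The 9 genes together held 0.754% to 0.943% of the counts of a library. CPM below is the usual depth-scaled count, with library sizes adjusted by TMM factors. Per kilobase of merged exon, Mbp was the highest at 682 CPM per kilobase on average, and Mobp came second at 286. Cnp (91.2), Mal (87.5) and Cldn11 (86.5) followed, and these 3 neighbours in the order overlapped over the 12 libraries. Mog and Mag were both at 40.8 CPM per kilobase and overlapped as well. The near-equal levels depend on the length used, since merged exons pool all annotated transcripts of a gene. Merged exons span 4.072 kilobases in Mag and 3.639 kilobases in Cnp, whose longest transcripts have 2434 and 2904 bases. In Mog and Mal the longest transcript is as long as the merged exons (1704 and 2778 bases). Ermn (13.6) and Opalin (11.1) were lowest, and their ranges also overlapped. The genes thus spanned levels from among the highest of any gene tested (Mbp at percentile 99.95 of mean CPM) to percentile 69.5 for Opalin. Sox10, a transcription factor of the whole oligodendrocyte lineage, was at 29.4 to 35.7 CPM, and Myrf, the factor that switches on myelin genes, at 27.7 to 39.1 CPM. Of a list of 8 genes drawn up for Schwann cells, the myelinating cells of peripheral nerve, 5 passed the count filter. Their summed level was 52.5 to 68.1 CPM, most of it from Pmp22 (27.7 CPM on average) and Mlip (24.4 CPM). Other cells make Pmp22 as well, and the RNA of Mlip was not traced to any cell type. Pmp2, of the same list, had no count in any library.

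The stretches of DNA upstream of the start were read for the genes on which the results below turn: Mal and Ermn, which were lower after valproic acid, Mobp, which varied most between libraries, and Cldn11 as a myelin gene near the level of Mal per kilobase that did not pass the test. Each sequence runs 5′ to 3′ on the gene's own strand and covers 210 bases, from 250 to 41 bases before the RefSeq transcript start (build GRCm38.p6). Capitals mark ACAAAG or its reverse complement CTTTGT, the core recognised by SOX factors such as Sox10. The Mobp stretch lies at chr9:120149492-120149701 on the plus strand, Mal at chr2:127656736-127656945 on the minus strand, Ermn at chr2:58052905-58053114 on the minus strand, and Cldn11 at chr3:31149670-31149879 on the plus strand.
Mobp: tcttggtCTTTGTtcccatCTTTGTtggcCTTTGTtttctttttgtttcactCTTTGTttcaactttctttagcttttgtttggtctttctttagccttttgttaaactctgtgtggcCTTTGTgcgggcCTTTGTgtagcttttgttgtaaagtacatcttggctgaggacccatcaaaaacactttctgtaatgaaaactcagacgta
Mal: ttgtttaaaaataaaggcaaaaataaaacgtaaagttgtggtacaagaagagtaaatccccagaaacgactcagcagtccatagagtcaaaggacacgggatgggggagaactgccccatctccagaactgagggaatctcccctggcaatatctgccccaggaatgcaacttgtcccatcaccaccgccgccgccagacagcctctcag
Ermn: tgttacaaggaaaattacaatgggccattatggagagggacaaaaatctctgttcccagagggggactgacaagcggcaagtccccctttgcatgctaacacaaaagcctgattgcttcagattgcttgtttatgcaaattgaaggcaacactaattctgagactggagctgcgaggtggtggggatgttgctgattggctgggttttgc
Cldn11: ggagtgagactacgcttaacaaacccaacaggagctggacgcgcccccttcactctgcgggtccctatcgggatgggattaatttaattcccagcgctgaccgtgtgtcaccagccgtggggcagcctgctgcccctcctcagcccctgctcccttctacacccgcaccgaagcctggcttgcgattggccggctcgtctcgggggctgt

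Mobp carried 6 such matches, all written CTTTGT on its own strand, and Mal, Ermn and Cldn11 carried 0. Among the 32851 RefSeq windows of this length, 14.2% held at least 1 match, and 1 window, that of Mobp, held 6 or more. RefSeq windows were read for 8 of the 9 genes, 10 windows in all, since Mag has 3 starts. Windows on chromosome 18, where Mbp lies, were left out, so that Mbp was not searched. Of the 8 genes read, 4 (Mobp, Mag, Cnp and Opalin) had a match. CTGGNAC or its reverse complement GTNCCAG, a form of the motif of Myrf, stood in windows of Mog, Mag and Cnp and in 13.8% of all windows. CCAAT or its reverse complement ATTGG stood in windows of Ermn, Cldn11 and Mag and in 29.9% of all windows. Neither TATAAA (9.56% of all windows, both strands searched) nor GGGCGG (26.7%) stood in any of the 10. Matches of different motifs were counted separately where they overlapped. The letters describe these windows only and say nothing of binding.

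Prenatal valproic acid in wildtype was the first comparison. None of the 9 genes passed the test (edgeR's quasi-likelihood test, Benjamini-Hochberg adjustment over all 17995 genes, threshold 0.05), where 0.895% of all genes did. All 9 fitted log2 fold changes were negative, from -0.26 for Mal to -0.04 for Mog, with a median of -0.11, beside a median of 0.0067 over all genes, of which 48.5% were negative. The 9 values come from the same 6 libraries and are not independent of each other. With 1 library left out the median ran from -0.18 (without exposed wildtype replicate 3) to -0.03 (without exposed wildtype replicate 1), with -0.05 without exposed wildtype replicate 2. Mog turned positive without wildtype replicate 3 and with an offset for GC content and length (0.01 each), as did Cldn11 (3e-04) without exposed wildtype replicate 1, so that 9 negative values were not kept there. At an unadjusted p under 0.05, 2 of the 9 (Mal and Ermn) and 14.2% of all genes were counted. In a tissue sample, fewer oligodendrocytes and less of an RNA per oligodendrocyte cannot be told apart.

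**Figure D1:**
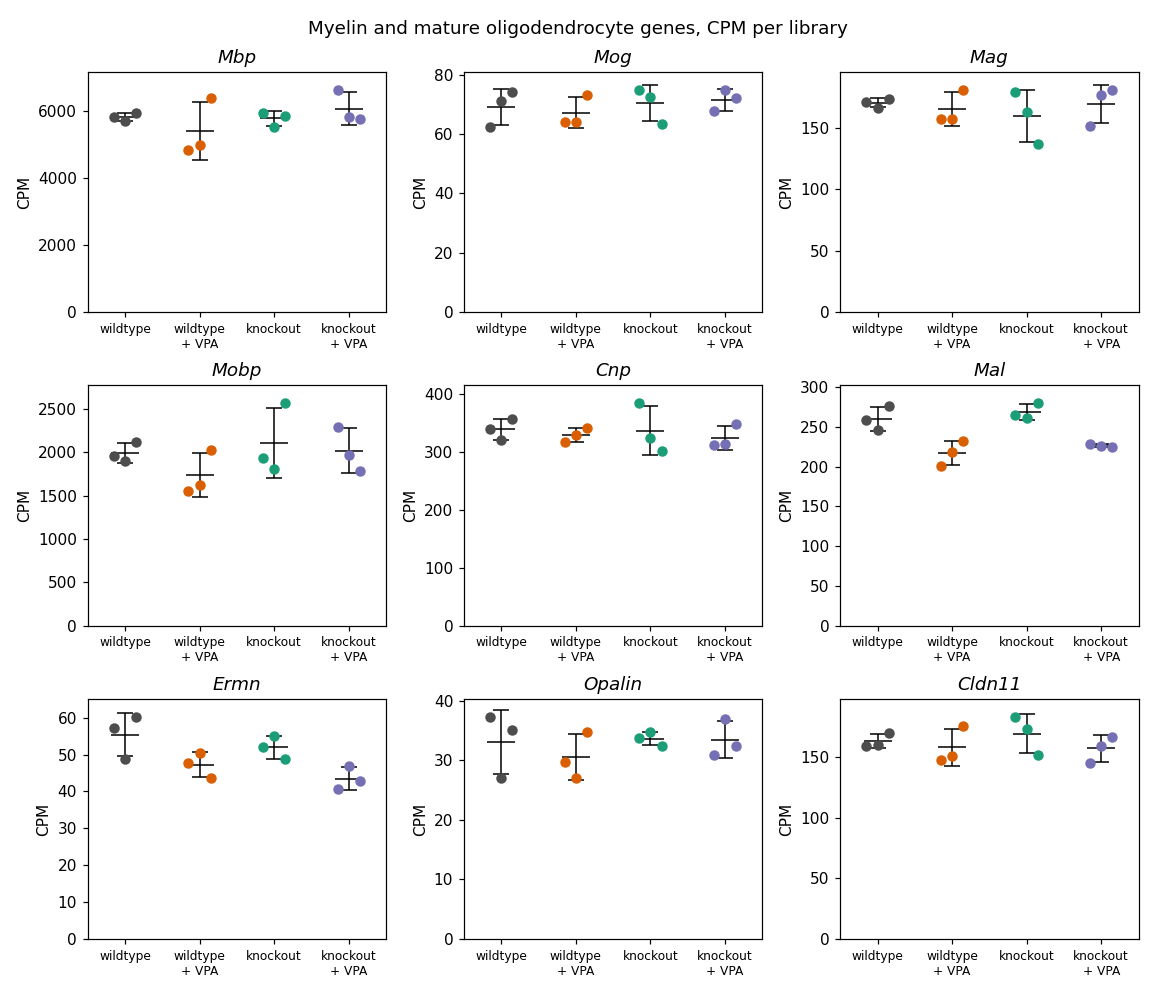
CPM of each of the 9 genes (y axis, linear from 0) in each of the 12 libraries, grouped on the x axis by genotype and prenatal valproic acid (VPA). Points are libraries in the order of their replicate numbers, long bars are group means and whiskers are 1 SD (n = 3). In Mal alone all 6 exposed libraries (201 to 232 CPM) lie below all 6 unexposed ones (246 to 279.9 CPM).

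Among the genes of compact myelin, Mbp encodes myelin basic protein, which zips the cytoplasmic faces of the membrane together (ENSMUSG00000041607, chromosome 18). Its level was 5843, 5712 and 5949 CPM in wildtype replicates 1 to 3 and 4839, 5006 and 6395 CPM in wildtype with valproic acid. It was 5955, 5543 and 5871 CPM in knockout and 6647, 5815 and 5772 CPM in knockout with valproic acid. The exposed wildtype libraries lay on both sides of the unexposed ones, 2 below and the library without Xist above, and the log2 fold change in wildtype was -0.11 ± 0.10 (SE, n = 3 against 3, 95% confidence interval -0.30 to 0.09, edgeR adjusted p = 0.665). Mobp encodes a smaller basic protein of compact myelin (ENSMUSG00000032517, chromosome 9). It was at 1959, 1897 and 2117 CPM in wildtype and at 1559, 1619 and 2029 CPM in exposed wildtype. In knockout it was at 1932, 1813 and 2568 CPM, and in exposed knockout at 2297, 1974 and 1782 CPM. Its groups overlapped in each comparison, and its log2 fold change after valproic acid was -0.20 ± 0.13 in wildtype (edgeR adjusted p = 0.541) and -0.06 ± 0.13 in knockout (edgeR adjusted p = 0.877).

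Mog and Mag are the surface proteins of the set. Mog encodes a glycoprotein on the outermost face of the sheath (ENSMUSG00000076439, chromosome 17) and was at 62.4, 71.1 and 74.1 CPM in wildtype and 64.2, 64.2 and 73.3 CPM in exposed wildtype. In knockout Mog was at 75.0, 72.5 and 63.5 CPM, and in exposed knockout at 67.6, 74.9 and 72.0 CPM. All 4 groups of Mog overlapped, and its log2 fold change after valproic acid was -0.04 in wildtype and 0.02 in knockout, with 95% intervals of -0.21 to 0.12 and -0.14 to 0.19. Mag encodes an adhesion protein of the innermost layer that faces the axon (ENSMUSG00000036634, chromosome 7). It was at 171, 166 and 174 CPM in wildtype, 157, 157 and 181 CPM in exposed wildtype, 179, 163 and 137 CPM in knockout, and 151, 176 and 181 CPM in exposed knockout. Its groups overlapped too, and the lowest library, knockout replicate 3, was the one with the highest Mobp. The log2 fold change of Mag after valproic acid was -0.05 ± 0.09 in wildtype and 0.09 ± 0.09 in knockout.

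Cnp, Cldn11 and Opalin stand for cytoplasmic channels, tight junctions and a membrane glycoprotein. Cnp encodes a phosphodiesterase that keeps cytoplasmic channels in myelin open (ENSMUSG00000006782, chromosome 11). It was at 338, 320.2 and 357 CPM in wildtype, 316, 328 and 341 CPM in exposed wildtype, 384, 323 and 302 CPM in knockout, and 311, 313 and 348 CPM in exposed knockout. Exons of Cnp overlap those of Dnajc7 on the opposite strand, and whether counting used the strand is not given, so reads of the pair may not be told apart. Cldn11 encodes the claudin of the tight junctions between layers of myelin (ENSMUSG00000037625, chromosome 3) and was at 159, 160.1 and 170.0 CPM in wildtype and 147, 151 and 175 CPM in exposed wildtype. In knockout Cldn11 was at 183, 173 and 151 CPM and in exposed knockout at 145, 159 and 167 CPM. Opalin encodes a membrane glycoprotein of mature oligodendrocytes (ENSMUSG00000050121, chromosome 19) and was at 37.3, 27.0 and 35.0 CPM in wildtype, 29.8, 27.1 and 34.7 CPM in exposed wildtype, 33.6, 34.8 and 32.5 CPM in knockout, and 30.9, 36.9 and 32.4 CPM in exposed knockout. The groups of these 3 genes overlapped in each pairwise comparison. Their log2 fold changes after valproic acid were -0.04, -0.05 and -0.13 in wildtype and -0.05, -0.11 and -0.01 in knockout, for Cnp, Cldn11 and Opalin in turn.

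Mal and Ermn had the lowest unadjusted p-values of the 9 after exposure in each genotype. Mal encodes a proteolipid of membrane rafts that takes part in sorting components into myelin (ENSMUSG00000027375, chromosome 2). It was at 258, 246 and 276 CPM in wildtype and at 201, 219 and 232 CPM in exposed wildtype, with no overlap. In knockout Mal was at 265, 261 and 279.9 CPM and in exposed knockout at 229, 226 and 225 CPM, again with no overlap. Its log2 fold change was -0.26 ± 0.07 in wildtype (95% interval -0.40 to -0.11, edgeR adjusted p = 0.0734) and -0.24 ± 0.07 in knockout (-0.39 to -0.10, edgeR adjusted p = 0.121), so neither passed. DESeq2's Wald test put Mal past the threshold in both, at adjusted p = 0.012 in wildtype and 0.0294 in knockout. Ermn encodes ermin, a cytoskeletal protein of late oligodendrocyte maturation (ENSMUSG00000026830, chromosome 2). It was at 57.1, 48.9 and 60.3 CPM in wildtype, 47.6, 50.5 and 43.6 CPM in exposed wildtype, 52.1, 55.0 and 48.7 CPM in knockout, and 40.7, 46.9 and 42.8 CPM in exposed knockout. The groups of Ermn overlapped in wildtype and not in knockout, and its log2 fold changes were -0.23 ± 0.08 (edgeR adjusted p = 0.182) and -0.26 ± 0.08 (edgeR adjusted p = 0.161).

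In knockout, valproic acid moved none of the 9 genes past the test, where 0.0556% of all genes passed, and 6 of 9 fold changes were negative, as were 48.2% over all genes (median -0.05, against 0.0089 over all genes). With 1 library left out that median ran from -0.08 (without knockout replicate 2) to 0.01 (without exposed knockout replicate 3), with -0.01 without knockout replicate 1 and -0.03 without exposed knockout replicate 1. It was -0.12 with the offset for GC content and length. Exposed libraries lay wholly below unexposed ones for 1 of the 9 genes in wildtype, where this held for 10.9% of all genes, and for 2 of 9 in knockout, where it held for 10.3%. At an unadjusted p under 0.05, 2 of 9 (again Mal and Ermn) and 14.9% of all genes were counted in knockout. The difference between the genotypes in the effect of valproic acid was itself tested as an interaction. It passed for none of the 9 and for 0% of all genes by edgeR, and none of the 9 but 5.97% of all genes had an unadjusted p under 0.05. For Mal this difference was 0.01 ± 0.10 on the log2 scale (95% interval -0.19 to 0.22) and for Ermn -0.03 ± 0.12 (-0.27 to 0.22). The widest interval was that of Mobp, 0.14 ± 0.19 (-0.26 to 0.53).

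After the values of Mal and Ermn had been seen, the effect of valproic acid was also averaged over both genotypes, 6 exposed against 6 unexposed libraries, in the same 4-group fit. Both fell: Mal by 0.25 ± 0.05 on the log2 scale (1.19-fold lower, 95% interval -0.35 to -0.15, edgeR adjusted p = 0.0057) and Ermn by 0.24 ± 0.06 (1.18-fold lower, -0.37 to -0.12, edgeR adjusted p = 0.0169). Lower calls made up 3.87% and calls in both directions 5.99% of all genes in this contrast, and the other 7 genes had adjusted p-values from 0.459 to 0.949. Mal averaged 264 ± 12.4 CPM (SD, n = 6) unexposed and 222 ± 11.2 CPM exposed. All 6 exposed libraries of Mal were below all 6 unexposed, which held in this direction for 2.07% of all genes. Ermn averaged 53.7 ± 4.61 CPM unexposed and 45.4 ± 3.61 CPM exposed, with an overlap between 48.7 and 50.5 CPM.

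**Figure D2:**
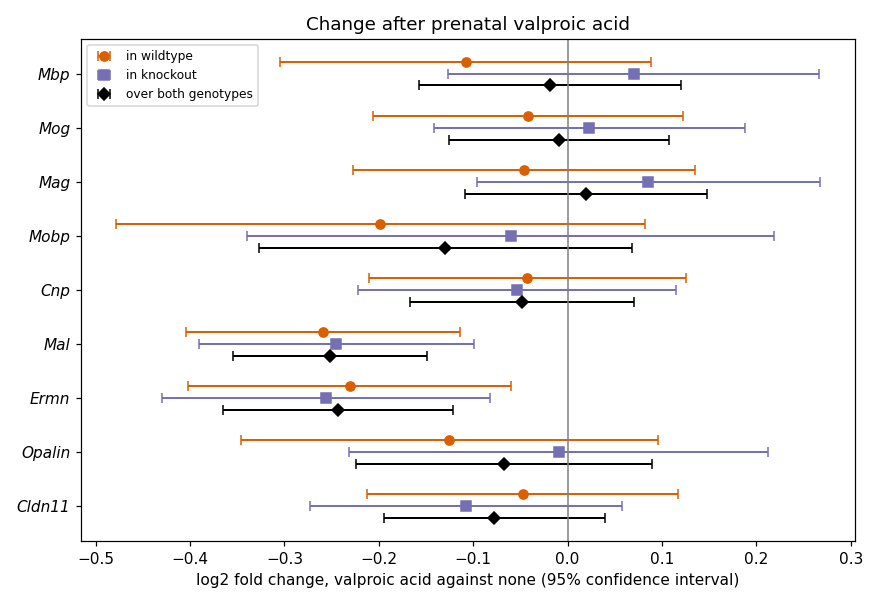
Fitted log2 fold change of each gene after prenatal valproic acid (x axis) in wildtype, in knockout and averaged over both genotypes, with 95% confidence intervals from edgeR. The intervals of Mal and Ermn lie below 0 in all 3 comparisons, and those of the other 7 genes include 0.

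The call of Mal held in 23 of 23 alternative settings (adjusted p 2.39e-05 to 0.0252). That of Ermn was lost in 4 of 23: with a term for the presence of Xist (-0.21, adjusted p = 0.112), without both libraries that lack Xist (-0.21, adjusted p = 0.0978), without wildtype replicate 3 (-0.21, adjusted p = 0.0594) and with an offset for GC and length (-0.14, adjusted p = 0.240). The correlation across genes of a library's deviations with GC content was -0.39 to 0.01 in unexposed libraries, -0.05 to 0.17 in exposed wildtype and 0.18 to 0.44 in exposed knockout. With transcript length it was -0.22 to 0.08 in unexposed libraries, 0.12 to 0.26 in exposed wildtype and -0.22 to -0.02 in exposed knockout. The longest transcript of Ermn has 38.0% GC, the lowest of the set, against 48.9% for Mal and 45.8% to 57.6% for the 8 genes other than Ermn. The part of GC content and length in the value of Ermn was not tested beyond that offset.

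Set against the mean log2 CPM of the other 7 genes in the same library, Mal was at -0.28 to -0.08 in the 6 unexposed libraries (mean -0.21 ± 0.07) and at -0.47 to -0.31 in the 6 exposed (mean -0.42 ± 0.06). The exposed and unexposed libraries did not overlap on this measure. Ermn was at -2.63 to -2.41 in unexposed and -2.88 to -2.43 in exposed libraries and overlapped, since exposed wildtype replicates 1 and 2 lay within the unexposed range. Both genes were singled out after their values were seen, so these ratios are a description and have no test.

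**Figure D3:**
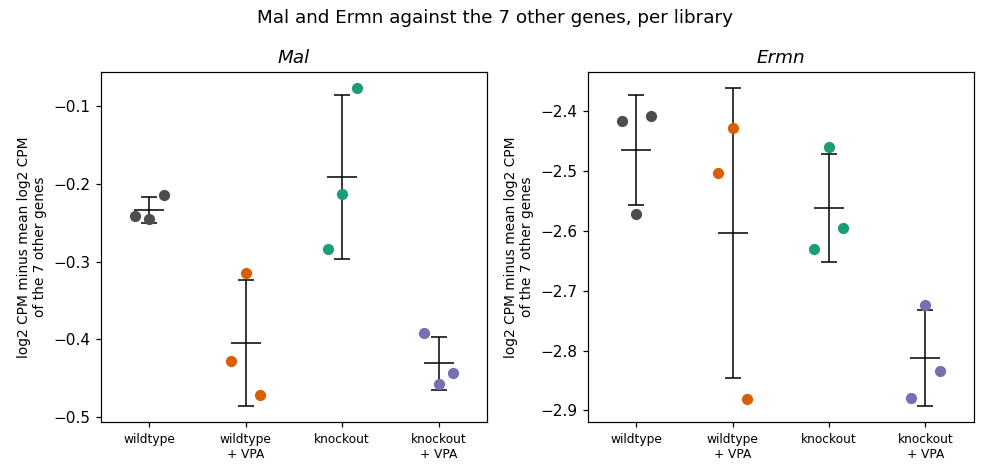
Log2 CPM of Mal (left) and Ermn (right) minus the mean log2 CPM of the other 7 genes in the same library (y axis), by group, with group means and 1 SD (n = 3). For Mal every exposed library is at or below -0.31 and every unexposed library at or above -0.28, while for Ermn the exposed wildtype libraries spread from -2.88 to -2.43.

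Deletion of Notch under the htr3a label was compared with wildtype in each treatment. Without valproic acid none of the 9 genes passed the edgeR test, where 0.0389% of all genes did, 5 fold changes were positive and 4 negative (50.3% of all genes were negative), and the median was 0.02. None of the 9 had an unadjusted p under 0.05, against 3.13% of all genes. The fold changes ran from -0.10 ± 0.08 for Ermn to 0.08 ± 0.13 for Mobp. With valproic acid none passed either (0.05% of all genes), 6 were positive and 3 negative (48.8% of all genes were negative), and the median was 0.06. None reached an unadjusted p under 0.05 there, against 7.44% of all genes. The largest was again Mobp, at 0.22 ± 0.13 (95% interval -0.06 to 0.50, edgeR adjusted p = 0.765), followed by Mbp at 0.17 ± 0.10 (-0.03 to 0.36, edgeR adjusted p = 0.735). In both comparisons each of the 9 genes' groups overlapped. Of all genes, 3.58% lay wholly higher and 3.81% wholly lower in unexposed knockout than in wildtype, and 6.96% and 6.23% in exposed knockout. Averaged over both treatments, a contrast also added after the data were seen, none of the 9 passed (0.05% of all genes). Nor did any of the 9 pass in these 3 contrasts or in the interaction by DESeq2 or limma-voom. In the average the values ran from -0.11 ± 0.06 for Ermn to 0.15 ± 0.09 for Mobp.

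The 9 genes also differed by library within groups. Exposed wildtype replicates 1 and 2 had 0 and 1 of the 9 genes above the gene's mean over 12 libraries, with mean deviations of -0.16 and -0.13 on the log2 scale. Exposed wildtype replicate 3, the library without Xist, had 7 of 9 above it (mean deviation 0.05). Wildtype replicate 3 had 9 of 9 above (0.12) and knockout replicate 1 had 8 of 9 (0.10). Wildtype replicate 1 had 7 of 9 above (0.05). Without exposed wildtype replicate 3 the fold change of Mbp in wildtype was -0.24 and that of Mobp -0.32, and neither passed the edgeR test.

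**Figure D4:**
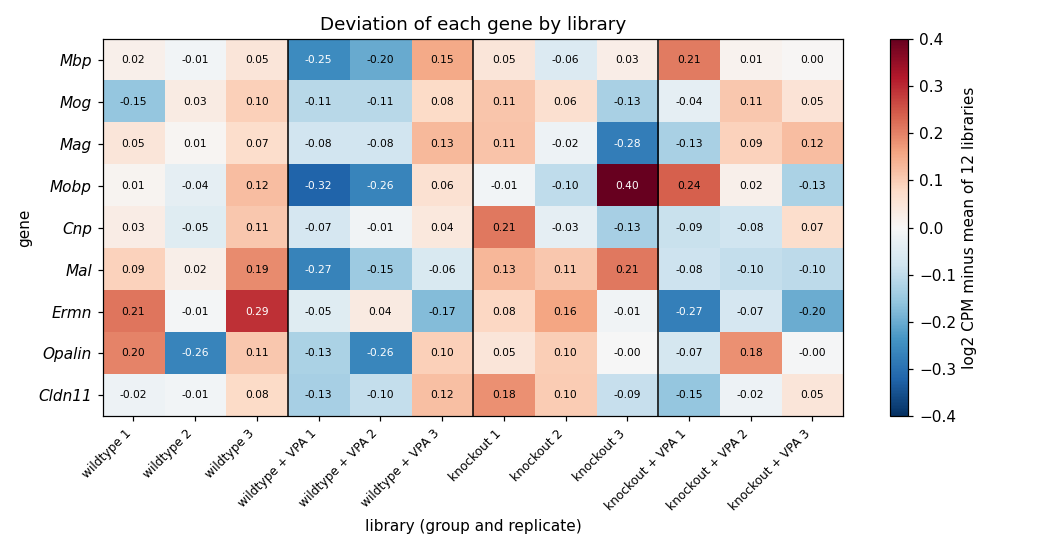
Log2 CPM of each gene (rows) in each library (columns) minus the gene's mean over the 12 libraries, in colour and in figures, with black lines between the 4 groups. Exposed wildtype replicates 1 and 2 are low in nearly all genes, and knockout replicate 3 and exposed knockout replicate 1 are high in Mobp (0.40 and 0.24) and low in Mag (-0.28 and -0.13).

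The ratio of Mobp to each of the other genes except Mbp stood apart in the same 2 libraries. In knockout replicate 3 its CPM was 18.8 times that of Mag, and in exposed knockout replicate 1 it was 15.2 times, against 9.87 to 12.2 in the other 10 libraries. The ratio of Mobp to Cnp was 8.50 and 7.39 in these libraries and 4.93 to 6.30 in the others. Set against Mbp, Mobp stood apart in knockout replicate 3 (ratio 0.437) and not in exposed knockout replicate 1 (0.346), where Mbp was at its highest as well (0.309 to 0.356 in the other 10). The libraries carry different groups and replicate numbers, and their mitochondrial shares were 15.2% and 18.6%, against 12.2% to 16.4% in the other libraries. The part of RNA quality in the ratio was not tested. The SD within groups, on the log2 scale, was 0.20 for Mobp, the largest of the 9, and 0.07 for Mal, the smallest.

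Across the 12 libraries the 9 genes did not vary as a block. The median Pearson r over the 36 pairs of genes was 0.34 on log2 CPM and 0.26 on deviations from group means, given as a description, since the points share libraries, depth and scaling. Mag and Cldn11 were the closest pair on deviations (r = 0.96), and Mobp ran against Mag (-0.41) and Ermn (-0.42). Of 15298 genes whose mean reached 1 CPM, those most like the mean of the 9 on deviations from group means were Cd9 (r = 0.97), which encodes a tetraspanin of myelin and other membranes, Ndufb8 (0.95), a subunit of respiratory complex I, Cd82 (0.95), another tetraspanin, and Psmc5 (0.94), a subunit of the proteasome. Bst2 (0.93), Ech1 (0.89), Musk (0.89) and Prom1 (0.89) followed. On log2 CPM the order was led by Musk (0.92), Ndufb8 (0.90) and Foxd1 (0.90), followed by Adprm, Pard3, Ift20, Gm44421 and Rps13-ps2 (0.87 to 0.85). Musk lies near the lower limit of level, at 1.04 CPM.

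Other genes of the lineage were read from lists, none of whose genes passed the edgeR test for knockout against wildtype or for the interaction. After valproic acid 0.895% of all genes passed in wildtype, 0.0556% in knockout and 5.99% averaged over both genotypes. The counts of calls in each list are to be read beside these shares. Of 16 other genes of compact and non-compact myelin, 1 was lower and none higher past the edgeR test after valproic acid in wildtype, with 14 of 16 negative and a median of -0.12. The 1 was Cd9, at 60.0, 55.8 and 63.8 CPM in wildtype and 45.4, 46.9 and 53.0 CPM exposed, with a log2 fold change of -0.31 ± 0.07 (edgeR adjusted p = 0.0412). In knockout Cd9 was at 56.8 to 60.3 CPM and exposed at 59.6 to 63.2 CPM (0.08 ± 0.07, edgeR adjusted p = 0.658). Its call in wildtype was lost without any 1 of wildtype replicates 1, 2 and 3, exposed wildtype replicates 1 and 2 or exposed knockout replicates 2 and 3 (-0.35 to -0.26, adjusted p 0.0516 to 0.257). It was also lost with limma-voom (adjusted p = 0.0516), the replicate block (0.0567), the 6 libraries alone (0.0503) and the GC and length offset (-0.20, adjusted p = 0.216). Averaged over both genotypes Tspan2, a tetraspanin of early myelination, was the 1 gene of this list past the test, at -0.19 ± 0.05 (edgeR adjusted p = 0.0245). That call was lost without any 1 of wildtype replicate 3, knockout replicate 2, exposed wildtype replicates 1 and 2 or exposed knockout replicate 1 (-0.19 to -0.16, adjusted p 0.0519 to 0.0674). The GC and length offset ended it too (-0.13, edgeR adjusted p = 0.168).

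Among 25 other genes of mature oligodendrocytes, Anln, which encodes the septin-binding scaffold anillin of the myelin sheath, was the 1 that passed in wildtype. It was at 33.2, 29.4 and 35.0 CPM in wildtype and 19.9, 23.8 and 19.9 CPM after exposure, with no overlap. Anln fell by 0.62 ± 0.10 on the log2 scale (1.54-fold lower, edgeR adjusted p = 0.00328). In knockout it was at 24.2, 28.8 and 23.1 CPM, and exposed at 21.3, 23.3 and 20.8 CPM (-0.22 ± 0.10, edgeR adjusted p = 0.298), and those groups overlapped. Averaged over both genotypes Anln fell by 0.42 ± 0.07 (edgeR adjusted p = 0.00197), and both calls held in each alternative setting run, 24 in wildtype and 23 averaged. Of the other 24 genes of the list none passed in these comparisons, and the median of the list was -0.05 in wildtype and 0.08 in knockout. Apod and Ptgds of this list also stand in a list of 12 meningeal fibroblast genes. Those 12 were all positive after valproic acid in knockout (median 0.32, none past the edgeR test). The part of other cell types in the median of the mature oligodendrocyte list was not tested.

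None of 13 transcription factors of the lineage passed after valproic acid, in either genotype or averaged. Hdac11, a deacetylase, and Olig1, a factor of precursor and mature cells, had the highest levels and fold changes of -0.07 ± 0.07 and -0.23 ± 0.07 in wildtype (edgeR adjusted p = 0.707 and 0.126). Of 10 genes for galactolipids and very long fatty acids, the lipids of myelin, none passed in either genotype, and Hsd17b12, an enzyme of fatty acid elongation, was at -0.09 ± 0.07 in wildtype. Degs1, which makes ceramide, and Ugt8a, which attaches galactose to ceramide, passed averaged over both genotypes, at -0.17 ± 0.05 and -0.21 ± 0.06 (edgeR adjusted p = 0.0304 and 0.0322). Degs1 lost its call without any 1 of wildtype replicates 2 and 3, knockout replicate 3, exposed wildtype replicates 1 and 2 or exposed knockout replicate 3 (-0.17 to -0.15, adjusted p 0.0565 to 0.081). Ugt8a lost it without any 1 of wildtype replicate 3, knockout replicates 1 and 2, exposed wildtype replicates 1 and 2 or exposed knockout replicates 1 and 3 (-0.21 to -0.17, adjusted p 0.0528 to 0.113). With the offset for GC content and length both calls ended, with values of -0.11 each (adjusted p = 0.217 and 0.351).

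Of 19 genes of cholesterol synthesis and uptake, a lipid supply on which myelination depends but which every cell uses, 18 were positive after valproic acid in wildtype, with a median of 0.14. In knockout the list's median was 0.11 with 14 of 19 positive, and none passed. Dhcr7, the last enzyme of the synthesis, was at 0.25 ± 0.08 in wildtype and 0.23 ± 0.08 in knockout, and neither passed (edgeR adjusted p = 0.144 and 0.190). Averaged over both genotypes Dhcr7 rose by 0.24 ± 0.06 (edgeR adjusted p = 0.0179), from 24.3 to 30.3 CPM in the 6 unexposed libraries to 32.1 to 34.9 CPM in the 6 exposed, with no overlap. Without either wildtype replicate 3 or knockout replicate 3 this call was lost (0.23 and 0.19, adjusted p 0.0548 and 0.0602). The GC and length offset ended it as well (0.20, edgeR adjusted p = 0.0655).

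Of 14 precursor markers, Cacng4, an auxiliary subunit of glutamate receptors, passed in wildtype at -0.30 ± 0.07 (edgeR adjusted p = 0.0473) and averaged over both genotypes at -0.21 ± 0.05 (edgeR adjusted p = 0.0174). The list's median was 0.0068 in wildtype. The call of Cacng4 in wildtype was lost without any 1 of the 3 wildtype replicates, the 3 exposed wildtype replicates, knockout replicate 2 or exposed knockout replicates 2 and 3 (-0.35 to -0.27, adjusted p 0.0523 to 0.192). Of 14 tested markers of newly formed oligodendrocytes none passed in either genotype, and the most abundant, Bcas1 and Fyn, were at -0.10 ± 0.12 and -0.05 ± 0.06 in wildtype. Tmem163, a zinc transporter, passed in the average (-0.32 ± 0.09, edgeR adjusted p = 0.0305) and lost that call without any 1 of wildtype replicate 3, knockout replicates 1 and 3, exposed wildtype replicates 1 and 3 or exposed knockout replicates 1 and 3 (-0.34 to -0.25, adjusted p 0.0507 to 0.115). None of 18 receptors and inhibitors of differentiation passed, in either genotype or averaged. Lingo1, a brake on myelination, and Id4, an inhibitor of basic helix-loop-helix factors, were at 0.21 ± 0.08 and -0.12 ± 0.08 in wildtype. Averaged over both genotypes Lingo1 was just outside the threshold (0.18, edgeR adjusted p = 0.0516). It passed in 6 of 23 alternatives, among them DESeq2's Wald test (adjusted p = 0.0324), and the adjusted p of the 23 ran up to 0.391.

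Of 13 genes of the node and of the junction between axon and glia, none passed in either genotype, and Cntn1, an adhesion protein of the paranode, was at -0.05 ± 0.07 in wildtype. Cntn2, an adhesion protein beside the node, passed in the average at 0.16 ± 0.05 (edgeR adjusted p = 0.0486) and not in 19 of 23 alternatives, among them the GC and length offset (0.03, adjusted p = 0.745). Of 5 tested genes of the list drawn up for peripheral myelin none passed in either genotype. Pmp22, a protein of peripheral myelin that other cells make as well, was at 0.16 ± 0.09 in wildtype. Mlip passed in the average at 0.25 ± 0.08 (edgeR adjusted p = 0.0461) and not in 14 of 23 alternatives. Leaving out any 1 library except knockout replicate 2 ended the call of Cntn2 (0.12 to 0.17, adjusted p 0.0536 to 0.151). The call of Mlip ended without any 1 of wildtype replicates 2 and 3, knockout replicates 2 and 3, the 3 exposed wildtype replicates or exposed knockout replicates 1 and 2 (0.21 to 0.26, adjusted p 0.0647 to 0.138). Leaving out both libraries that lack Xist also ended the averaged calls of Degs1 (adjusted p = 0.0682), Ugt8a (0.122), Dhcr7 (0.0755), Tmem163 (0.0887) and Cntn2 (0.140) and the call of Cacng4 in wildtype (0.0699), by edgeR. In that order the log2 fold changes were then -0.19, -0.20, 0.24, -0.33, 0.16 and -0.35. With all 12 libraries they were -0.17, -0.21, 0.24, -0.32, 0.16 and -0.30. A term for the presence of Xist ended the averaged calls of Degs1 (edgeR adjusted p = 0.0886), Ugt8a (0.140), Dhcr7 (0.0737) and Cacng4 (0.0554). With that term the averaged calls of Tmem163 (0.0995), Cntn2 (0.143) and Mlip (0.0598) and the call of Cacng4 in wildtype (0.0768) ended too. Under the term the averaged values were -0.18 for Degs1, -0.19 for Ugt8a, 0.24 for Dhcr7 and -0.23 for Cacng4. They were -0.33 for Tmem163, 0.16 for Cntn2 and 0.31 for Mlip, and Cacng4 in wildtype was at -0.32.

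**Figure D5:**
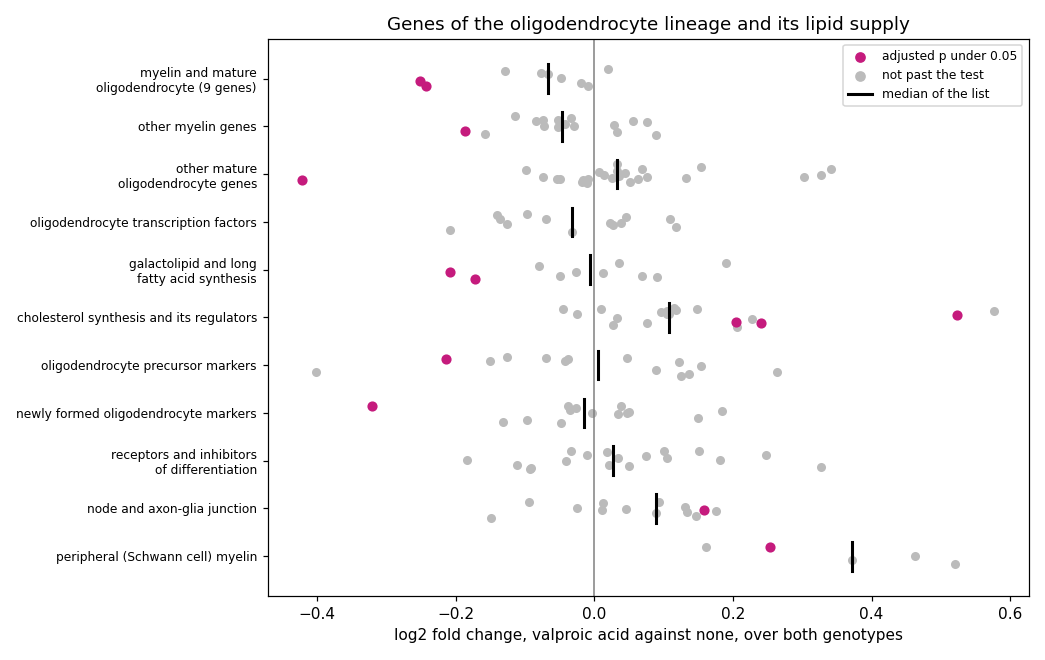
Log2 fold change after valproic acid averaged over both genotypes (x axis) for the genes of each list (rows), with calls at an edgeR adjusted p under 0.05 in magenta, other genes in grey and the median of each list as a black bar. The 9 genes have a median of -0.07 with Mal and Ermn called, and the cholesterol list has a median of 0.11.

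Markers of other cell types were compared between exposed and unexposed libraries as well. The 12 markers of striatal projection neurons were all negative in each genotype, with medians of -0.69 in wildtype (4 past the edgeR test) and -0.37 in knockout (none past it). Their summed level was 1498 to 1585 CPM in wildtype, 923 to 1021 CPM in exposed wildtype, 1106 to 1794 CPM in knockout and 907 to 1174 CPM in exposed knockout. No marker of cortical excitatory neurons, choroid plexus, astrocytes or microglia passed the edgeR test after valproic acid in wildtype or in knockout. Averaged over both genotypes, where 5.99% of all genes passed, 7 of the 12 striatal markers were lower past the edgeR test. In that contrast 2 of 10 cortical excitatory neuron markers and 2 of 12 microglial markers were higher, and no choroid plexus or astrocyte marker passed. The summed level of 10 cortical excitatory neuron markers was 1238 to 1454 CPM unexposed and 1462 to 1671 CPM exposed. The mean log2 CPM of these 10 overlapped, at 5.65 to 5.89 unexposed and 5.80 to 6.06 exposed. The 12 choroid plexus markers ran from 1347 to 2088 CPM unexposed and from 1367 to 3191 CPM exposed, with all 12 positive in knockout (median 0.64, none past the edgeR test). The 12 astrocyte markers were at 6640 to 7494 CPM unexposed and 7009 to 8761 CPM exposed, and the 12 microglial markers at 387 to 435 and 415 to 441 CPM. All of these markers were detected. The choroid plexus, astrocyte and microglial ranges overlapped between exposed and unexposed libraries. The part of these levels in the values of Mal, Ermn and Anln was not tested.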

How the data were processed

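Forebrain RNA of 12 libraries was analysed from a deposited table of raw counts per Ensembl gene; the deposited counts are whole numbers without normalisation. Per the labels' protocols, purification used an RNeasy kit, followed by ribosomal depletion and a NEBNext library kit. The submitters' processing notes name HISAT2 and the build GRCm39 (mm39), without versions. The sources used here do not give the counting program, the annotation or the strand setting. Symbols (52073 identifiers, 99.5% of counts), lengths and GC content came from GENCODE M21 on GRCm38, so the genes are placed by chromosome only. Promoter windows, with their coordinates, came from a RefSeq table on GRCm38.p6.

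With edgeR 4.0.16 in R 4.3.3, genes were filtered by filterByExpr, scaled by TMM and fitted with a robust quasi-likelihood model with 1 mean per group. P-values were adjusted by Benjamini-Hochberg over 17995 genes, and a call is an adjusted p under 0.05. SE is the log2 fold change divided by the root of F. Log2 CPM has a prior count of 2. Counts of 17995 genes were simulated with the fitted spread, and a small part of the genes was changed. Of those changed 1.5-fold, 73.1% were recovered in the comparison of valproic acid in wildtype and 83.6% over both genotypes. Changes as small as those of the 9 genes were not simulated. The 9 genes, the lists and the tests were chosen with earlier results of these data known. From each list the text names the genes past the test in a pairwise comparison, or else the 2 with the highest CPM; genes named from an averaged contrast, added after the data were seen, fall outside this rule. Alternatives were other size factors, other count filters, DESeq2 1.42.0, limma-voom (limma 3.58.1), a replicate block, a sex term from Xist, only the 6 libraries compared, each library left out and, added after seeing the data, a GC and length offset. No library was dropped or duplicated. Some genes that the naming rule takes are not reported here.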

Additional observations from a re-analysis of the deposited data

How the results depend on the processing

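No call of the 9 genes reversed: of 1485 values of these genes under alternatives, 1395 kept sign and side of the threshold, 84 changed sign while outside the threshold in both fits, 2 passed anew (Mal by DESeq2) and 4 were lost (Ermn). The number of the 9 past the test became 1 with DESeq2 in each genotype, and over both genotypes, where it was 2, it became 1 with the sex term, without both libraries lacking Xist and with the GC and length offset, and 1 to 2 with 1 library left out. Elsewhere it was 0 with any library left out.

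Counts over all tested genes moved more. Without a count filter they were 512 (valproic acid in wildtype, 161 as reported), 391 (in knockout, 10 as reported), 15 (knockout unexposed, 7), 60 (knockout exposed, 9), 5 (interaction, 0) and 46 (knockout averaged, 9). DESeq2 gave 333, 193, 25 (knockout exposed) and 18 (knockout averaged). For valproic acid in knockout limma-voom gave 3, the replicate block 6 and the 6 libraries alone 38; the latter gave 11 for knockout unexposed. The sex term gave 69 in wildtype, 2 in knockout and 172 averaged (1078 as reported). Without both libraries lacking Xist the counts were 40 in wildtype, 29 for knockout exposed, 4 for the interaction, 298 for valproic acid averaged and 14 for knockout averaged. The GC and length offset gave 78 in wildtype, 2 in knockout and 265 averaged. With 1 library left out, counts ran from 14 (wildtype replicate 3) to 225 in wildtype, 2 (exposed knockout replicate 1) to 162 (exposed wildtype replicate 3) in knockout, 6 to 9 for knockout unexposed, 7 to 86 (exposed wildtype replicate 3) for knockout exposed, 0 to 1 for the interaction, 426 (wildtype replicate 3) to 1193 for valproic acid averaged and 7 to 19 (exposed wildtype replicate 3) for knockout averaged. With upper-quartile factors 5 genes were higher and 1 lower in knockout unexposed, against 5 and 2. The cause of these moves was not tested.

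Same-numbered libraries of different groups correlated at -0.06 to 0.11 after removal of group means, so the numbers were not taken as pairing; the replicate block ended no call of the 9 genes, and of the other genes named it ended those of Cd9 (adjusted p = 0.0567) and Cacng4 (0.0689) in wildtype and of Ugt8a (0.0501) and Cntn2 (0.0599) over both genotypes. Depth limits the low genes most: Opalin rested on 490 to 927 counts a library and Mbp on 98213 to 145220.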
